A study of Mus musculus with 8 samples.

Results

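Plasma membrane amino acid transporters carry amino acids between blood and muscle fibres, and 10 of their genes are described here among the 14012 genes counted in quadriceps femoris (QF), a large thigh muscle, of mice that lack Grpel1 in skeletal muscle. The 10 genes were taken by name from the count table and all 10 were found there: Slc7a1, Slc7a2, Slc7a3, Slc7a5, Slc3a2, Slc43a1, Slc38a2, Slc6a9, Slc1a4 and Slc1a5. The knockout group, written Grpel1 skm-/- by the authors, was 4 mice homozygous for floxed Grpel1 that also carried a tamoxifen-inducible Cre recombinase under the human skeletal actin promoter (HSA-Cre), with tamoxifen injections begun at 5 weeks of age. The control group was 4 mice with floxed Grpel1, and whether they carried Cre or were given tamoxifen is not stated for these libraries. Floxed littermates are called untreated where the study describes body weight. Its body weight curves, however, show both floxed mice given tamoxifen but lacking Cre and floxed mice with Cre but no tamoxifen. If the controls of these libraries were untreated, an effect of tamoxifen cannot be told apart from that of the deletion. The same holds for an effect of Cre if they lacked it. Both groups thus carried the floxed allele, from a line founded in C57BL/6NCrl blastocysts. The promoter drives Cre in skeletal muscle fibres, so that by design the other cells of the muscle kept Grpel1. The age at sampling is not given for each library. GRPEL1 is the nucleotide exchange factor of the mitochondrial HSP70 that pulls proteins into the matrix.

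Amino acids cross the plasma membrane through carrier families with overlapping substrates. System L carriers move large neutral amino acids such as leucine. Of these, SLC7A5 is an exchanger that works only when bound to SLC3A2, a heavy chain that brings several light chains to the cell surface. System A carriers use the sodium gradient to take up alanine, serine and glutamine, system y+ carriers take up arginine and lysine, and ASC exchangers trade alanine, serine, cysteine and glutamine. Several of these genes are known targets of ATF4, the transcription factor of the integrated stress response (ISR), which in other cells raises amino acid uptake when the amino acid supply or mitochondrial function is disturbed. Muscle holds most of the free amino acids of the body and releases alanine and glutamine when its protein is broken down.

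The libraries held 16017565 to 20361144 counts each. The 20 most abundant genes took 36.4% to 39.4% of the counts in control muscle and 19.02% to 22.8% in knockout muscle, and the TMM factors that adjust for this were 0.75 to 0.84 and 1.19 to 1.33. Values below are therefore CPM, counts scaled to 1e+06 per library, over TMM-scaled library sizes, and RPKM is CPM per kilobase of exon. Scaling by library totals alone raised the median gene from a log2 fold change of 0.065 to 0.73 and, with it, the counts of calls from 3303 genes higher and 2962 lower to 8498 and 873. A count of 0 allows up to 3 counts, worth 0.119 to 0.242 CPM in these libraries, by counting error only. The whole-gene count of Grpel1 does not check the labels, since it was 69.6, 71.2, 68.8 and 64.1 CPM in control replicates 1 to 4 and 69.1, 71.9, 60.3 and 59.9 CPM in knockout replicates 1 to 4. Of 8 markers of skeletal muscle fibres 7 were lower and 1, Myh1, was higher in knockout muscle, and their summed level was 203864 to 258885 CPM in control muscle and 63191 to 91911 CPM in knockout muscle. Among markers of other cells, 5 of 6 endothelial and 3 of 5 fibroblast genes were lower, 1 of 10 macrophage genes (Cd68) was higher, 1 of the 2 T cell genes in the table (Cd3e) was lower, 2 of 4 satellite cell genes were higher and 1 lower, and 0 of 7 adipocyte, 0 of 5 erythroid and 0 of 5 Schwann cell genes passed the test. By library totals alone the fibre markers gave the same counts, but 0 endothelial genes were called, 1 fibroblast gene was higher and 1 lower, 8 macrophage genes and 3 satellite cell genes were higher and 0 of either lower, and 1 T cell and 1 Schwann cell gene were higher. Summed macrophage markers were 88.3 to 233 CPM in control muscle and 184 to 348 CPM in knockout muscle. The part of these cell types in the results below was not tested, and for adipocytes their markers are only set beside some carriers. In bulk RNA fewer cells of a type and less RNA per cell cannot be told apart.

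Many targets of ATF4 are known to hold a C/EBP-ATF response element near their start site. The bases there are shown for the members that rose and were in the table of RefSeq start sites (GRCm38.p6) used here, with Slc7a11 and Asns, known for such elements, beside them. Slc7a1 and Slc6a9 have further start sites, of which 1 each is shown, and the start site of Slc3a2 lies inside the span that the count table gives the gene. Each stretch runs 5' to 3' on the strand of its gene from 100 bases before to 10 bases after the RefSeq start site, and capitals mark matches to TGATGNAA, the element's core as searched here, on either strand. Slc7a1 is shown at chr5:148399895-148400004 (minus strand), Slc3a2 at chr19:8713888-8713997 (minus), Slc6a9 at chr4:117835158-117835267 (plus), Slc1a4 at chr11:20332704-20332813 (minus), Slc7a11 at chr3:50443604-50443713 (minus) and Asns at chr6:7693200-7693309 (minus).
Slc7a1: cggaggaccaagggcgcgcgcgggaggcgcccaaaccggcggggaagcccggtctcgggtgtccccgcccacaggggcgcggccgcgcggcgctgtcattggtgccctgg
Slc3a2: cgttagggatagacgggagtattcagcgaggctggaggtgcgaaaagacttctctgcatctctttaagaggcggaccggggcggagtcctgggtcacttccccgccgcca
Slc6a9: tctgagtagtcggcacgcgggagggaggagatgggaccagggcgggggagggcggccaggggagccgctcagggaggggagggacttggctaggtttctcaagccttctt
Slc1a4: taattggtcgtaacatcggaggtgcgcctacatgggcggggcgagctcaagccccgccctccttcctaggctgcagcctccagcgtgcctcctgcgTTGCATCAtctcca
Slc7a11: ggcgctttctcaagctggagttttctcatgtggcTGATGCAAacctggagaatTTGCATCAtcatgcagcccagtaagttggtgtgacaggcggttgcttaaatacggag
Asns: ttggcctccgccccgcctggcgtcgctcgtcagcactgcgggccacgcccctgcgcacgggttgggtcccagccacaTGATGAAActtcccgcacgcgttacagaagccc
Slc1a4 had 1 match, TTGCATCA, from base -4 relative to the start site. Slc7a11, the cystine carrier that pairs with SLC3A2, had 2 matches in opposite orientations, TGATGCAA from base -66 and TTGCATCA from base -47. Asns, which encodes asparagine synthetase, had TGATGAAA from base -23. Windows of 250 bases before to 50 after the start were given for 6 of the 10 members (also Slc38a2 and Slc43a1), and 1 of the 6 held a match, against 2.75% of the 10678 genes of the count table with a window and 4.51% of all 27025 genes with one. A match is a description of letters and says nothing of binding, and no match says only that these letters are not in that window.

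Of the 10 members, 6 rose and 1 fell in the knockout muscle. The 6 that rose were Slc7a5, Slc7a3, Slc7a1, Slc6a9, Slc1a4 and Slc3a2, with log2 fold changes from 2.36 to 6.22, the 1 that fell was Slc43a1, and Slc38a2, Slc7a2 and Slc1a5 did not pass the adjusted p of 0.01 by edgeR's quasi-likelihood test. These counts stand against a background in which 44.7% of the 14012 genes passed, 23.6% higher and 21.1% lower. The median log2 fold change of the 10 was 2.63, against 0.065 over all genes and 0.15 over the 249 genes with an Slc symbol, of which 70 were higher and 50 lower (48.2% called, and 141 and 16 by library totals alone). All 6 members that rose did so by over 4-fold, as 3.39% of all genes did. The groups of 4 did not overlap in CPM for 8 members, 7 higher and 1 lower, against 53.4% of all genes, 29% higher and 24.4% lower. The p-values weigh the difference between the groups against the variation among these 8 mice.

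**Figure D1:**
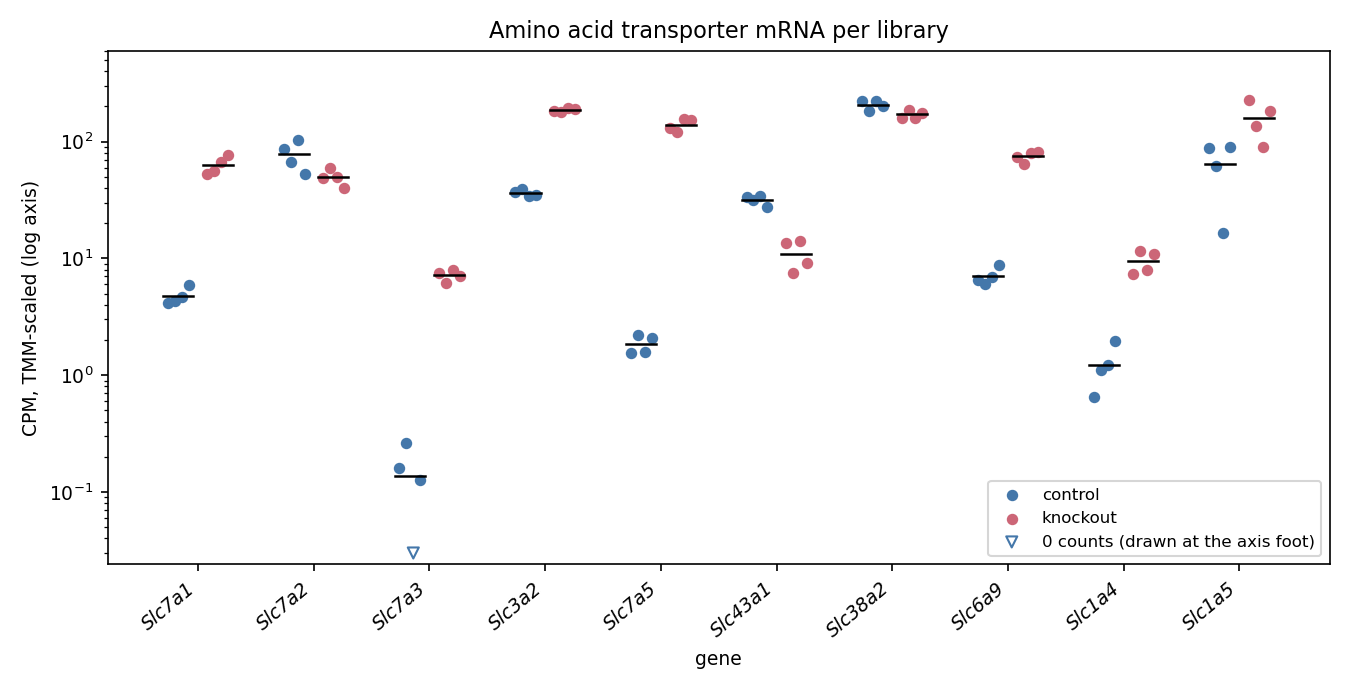
CPM on a log axis of the 10 transporter genes in each of the 4 control and 4 knockout libraries, 1 point per library. The groups are parted in every gene but Slc38a2 and Slc7a2, and the controls of Slc1a5 spread from 16.4 to 89.5 CPM.

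**Figure D2:**
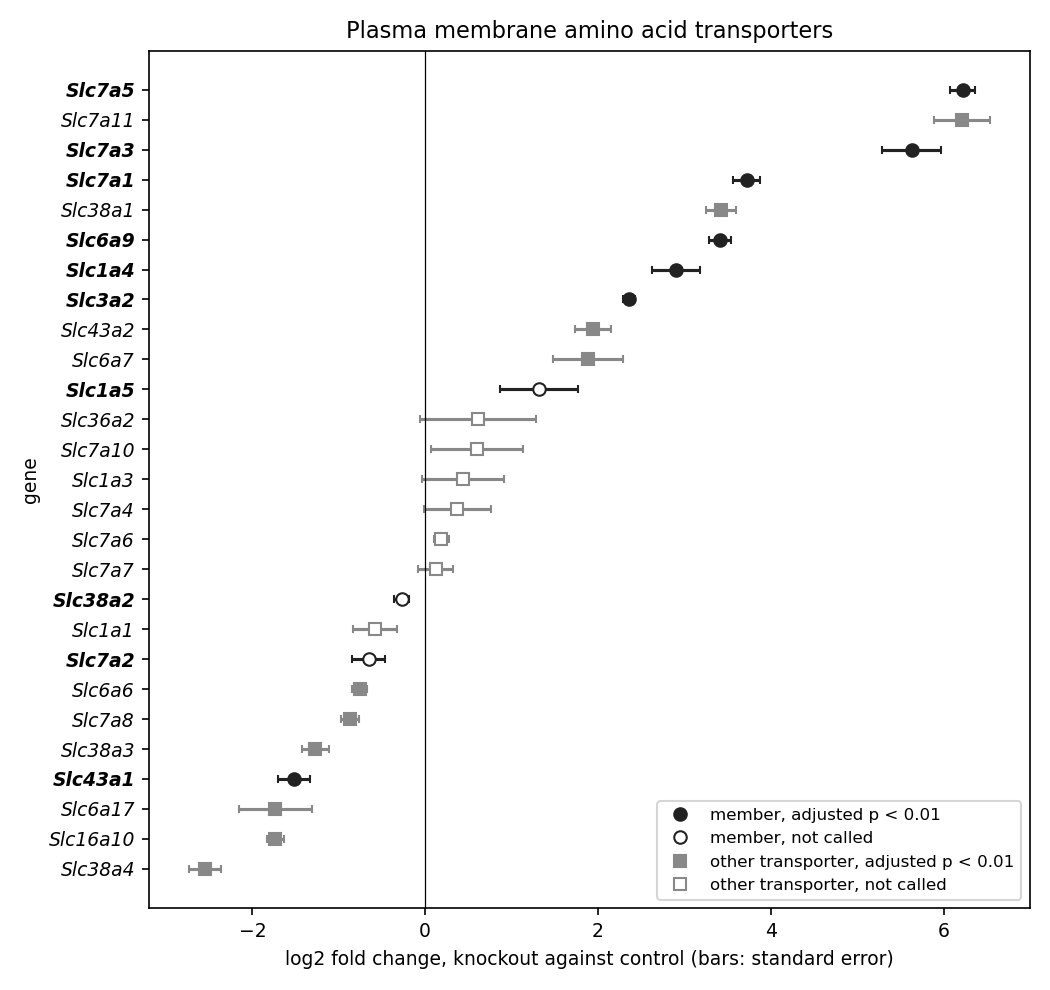
Log2 fold change of the 10 genes and of 17 other plasma membrane amino acid carriers, knockout against control. Bars are 1 standard error, and filled marks are genes past the adjusted p of 0.01. The 10 genes run from 6.22 for Slc7a5 to -1.52 for Slc43a1, and the other carriers from 6.21 for Slc7a11 to -2.54 for Slc38a4.

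Among the 3 carriers of cationic amino acids, the genes of 2 rose from low levels while the most abundant of them in control muscle did not. Slc7a1 (chromosome 5, 148327410 to 148399904 of GRCm38) encodes CAT1, the widely expressed arginine and lysine carrier. Its level was 4.12, 4.32, 4.65 and 5.86 CPM in control replicates 1 to 4 and 52.5, 55.8, 66.8 and 76.3 CPM in knockout replicates 1 to 4. Every knockout library lay far above the highest control. The mean went from 4.74 ± 0.779 to 62.9 ± 10.8 CPM (SD, n = 4 each), 13.2-fold, and the log2 fold change was 3.72 (SE 0.16, adjusted p = 1.2e-07, edgeR's quasi-likelihood test).

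Slc7a3 (chromosome X, 101079210 to 101085405) encodes CAT3, a cationic carrier best known from brain. It had 2, 4, 0 and 2 reads in control muscle and 181, 135, 194 and 179 reads in knockout muscle, or up to 0.262 CPM against 6.18 to 8.01 CPM. Control muscle was thus at or near the limit of detection and each knockout library well above it. Pooled over the libraries of a group, the ratio of the levels was 52.0 with an exact 95% counting interval of 26.2 to 121. Such intervals, here and below, cover the counting error of pooled reads and leave out variation between mice. The fitted log2 fold change was 5.63 (SE 0.34, adjusted p = 8.3e-07, edgeR's quasi-likelihood test).

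Slc7a2 (chromosome 8, 40862367 to 40922070) encodes CAT2, whose splice forms differ in affinity for arginine and cannot be separated in counts per gene. Its level was 87.2, 67.0, 103.4 and 53.2 CPM in control muscle and 48.7, 59.0, 49.99 and 40.1 CPM in knockout muscle. The groups overlapped through control replicate 4 and knockout replicate 2. The log2 fold change was -0.65 (SE 0.19, adjusted p = 0.015, edgeR's quasi-likelihood test), it was past the threshold without control replicate 4 (-0.80, adjusted p = 0.0026), and it was 0.034 when libraries were scaled by their totals alone.

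Per kilobase of exon, the make-up of the cationic carriers parted all knockout from all control libraries. Slc7a2 was 92.8% ± 2.97 of the summed RPKM of the 3 genes in control muscle and 35.2% ± 6.22 in knockout muscle. The share of Slc7a1 was 6.64% ± 2.76 against 48.2% ± 6.20, and that of Slc7a3 was 0.607% ± 0.482 against 16.7% ± 1.95 (exact permutation test, two-sided, p = 0.0286 for each, the smallest that 4 against 4 allow, and 0.0371 after adjustment over the 13 shares and ratios computed here). Control replicate 4, with the lowest Slc7a2 CPM, had the highest control share of Slc7a1 (10.6%), still far below the 43.4% of knockout replicate 2. The summed level was 10.6 ± 2.72 RPKM in control muscle and 17.96 ± 1.04 RPKM in knockout muscle, without overlap. Such shares are taken within a library and do not depend on its scaling factor. They do depend on exon length, and from counts not divided by it the share of Slc7a3, the shortest of the 3, differed by 5.87 percentage points in place of 16.05.

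Both genes of the heterodimer LAT1-4F2hc rose, the light chain from near absence and the heavy chain from a moderate level. Slc7a5 (chromosome 8, 121881146 to 121907686) encodes LAT1, the leucine exchanger that links extracellular amino acids to mTORC1. Its level was 1.53, 2.23, 1.57 and 2.08 CPM in control muscle, on 19 to 34 reads, and 131, 121, 155 and 153 CPM in knockout muscle, on 2641 to 3852 reads. Every knockout library was far above the highest control. With a log2 fold change of 6.22 (SE 0.15, adjusted p = 1.8e-08, edgeR's quasi-likelihood test), 74.6-fold, Slc7a5 ranked 39 of all 14012 genes by fold change.

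Slc3a2 (chromosome 19, 8706882 to 8723369) encodes the heavy chain 4F2hc, also known as CD98. Its level was 36.7, 39.3, 34.4 and 34.7 CPM in control muscle and 182.6, 177.6, 192.7 and 189.3 CPM in knockout muscle. These are the tightest groups of the 10 genes, and the lowest knockout library was far above the highest control. The mean went from 36.3 ± 2.26 to 185.5 ± 6.73 CPM, 5.12-fold, with a log2 fold change of 2.36 (SE 0.070, adjusted p = 3.4e-08, edgeR's quasi-likelihood test).

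The ratio of heavy chain to LAT1 mRNA was lower in every knockout library. Per length, Slc3a2 stood at 28.4, 20.96, 25.9 and 19.8 times the level of Slc7a5 in control muscle and at 1.66, 1.74, 1.47 and 1.47 times in knockout muscle. The mean log2 ratio was 4.56 ± 0.246 against 0.66 ± 0.125 (exact permutation test, two-sided, p = 0.0286, adjusted p = 0.0371). Heavy chain mRNA was thus in large excess over LAT1 mRNA in control muscle and in a much smaller excess, 1.47 to 1.74 times, in knockout muscle.

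Beside all 6 light chain genes that pair with SLC3A2, the heavy chain kept a ratio near 1 in both groups. The sum of Slc7a5, Slc7a6, Slc7a7, Slc7a8, Slc7a10 and Slc7a11 was 12.5 ± 2.66 RPKM in control muscle and 53.3 ± 4.31 RPKM in knockout muscle, and Slc3a2 was 12.3 ± 0.763 and 62.7 ± 2.27 RPKM. The ratio was 0.854, 1.06, 1.34 and 0.830 in control muscle and 1.17, 1.26, 1.16 and 1.12 in knockout muscle, so the control values lay on both sides of the knockout values. The difference in log2 ratio was 0.24 (exact permutation test, two-sided, p = 0.229), and 0.37 without control replicate 3 (p = 0.0286). Slc7a10, whose order over the libraries was that of the adipocyte markers in both groups, ranged from 0.330 to 5.43 RPKM in the controls. Left out of the sum, a choice made after the values were seen, it gave ratios of 1.36, 1.34, 1.39 and 1.33 in control muscle and 1.35, 1.40, 1.24 and 1.24 in knockout muscle, a log2 difference of -0.052 (exact permutation test, p = 0.371).

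Within that sum the composition changed. Slc7a5 was 4.35% ± 0.996 of light chain RPKM in control muscle and 74.6% ± 3.67 in knockout muscle, and Slc7a8, which encodes the other system L light chain LAT2, was 34.0% ± 6.59 and 4.27% ± 0.659. Slc7a8 fell by 0.87 on the log2 scale, from 16.6 ± 1.71 to 9.09 ± 0.627 CPM (adjusted p = 4.8e-05, edgeR's quasi-likelihood test), a call lost with scaling by library totals alone (-0.20, adjusted p = 0.15). Slc7a11 had 7 reads over the controls and 904 over the knockouts, a pooled ratio of 78.0 with an exact 95% counting interval of 37.7 to 195 (fitted log2 fold change 6.21, adjusted p = 3.6e-07). Slc7a6 and Slc7a7, the y+L light chains, had log2 fold changes of 0.19 (adjusted p = 0.089) and 0.12 (adjusted p = 0.62).

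**Figure D3:**
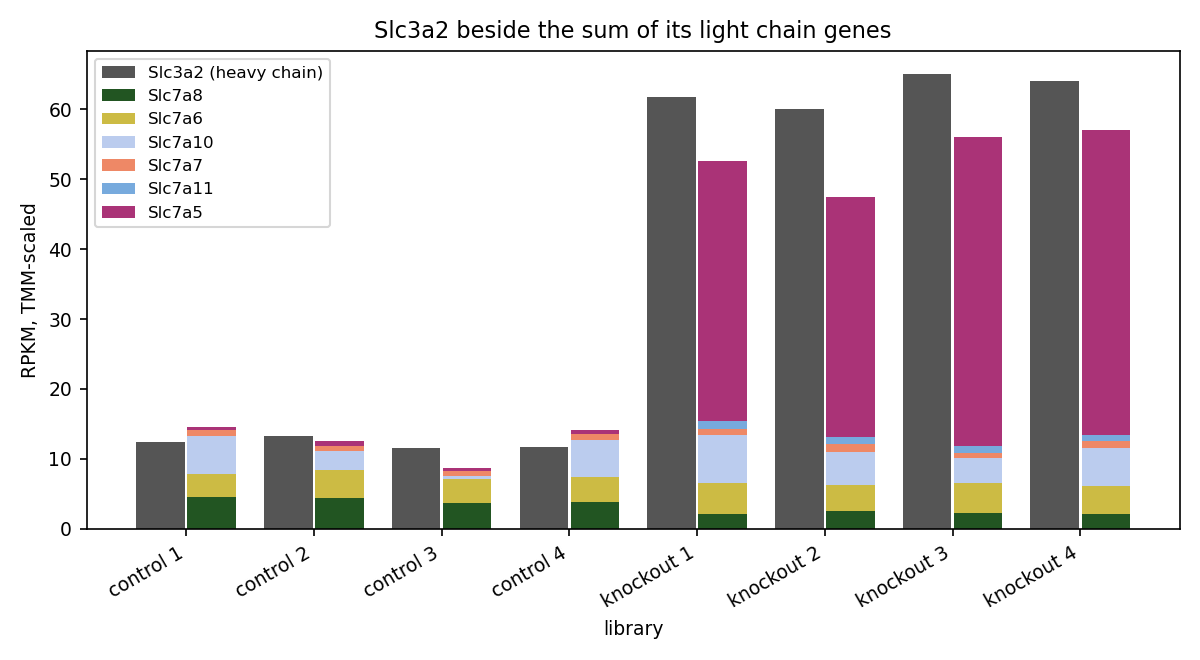
RPKM of Slc3a2 beside the stacked RPKM of the 6 light chain genes in each of the 8 libraries. Heavy chain and summed light chains stand at similar heights in each library, 12.3 ± 0.763 beside 12.5 ± 2.66 RPKM in control muscle and 62.7 ± 2.27 beside 53.3 ± 4.31 RPKM in knockout muscle, and Slc7a5 fills most of the knockout stacks.

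Slc43a1 was the member that fell. It lies on chromosome 2 from 84839408 to 84863586 and encodes LAT3, a system L uniporter that needs no heavy chain and lets branched-chain amino acids pass down their gradient. Its level was 33.4, 31.8, 34.1 and 27.3 CPM in control muscle and 13.4, 7.51, 14.04 and 9.06 CPM in knockout muscle, so the highest knockout library was below the lowest control. The mean fell from 31.6 ± 3.07 to 11.01 ± 3.22 CPM, with a log2 fold change of -1.52 (SE 0.19, adjusted p = 7.3e-05, edgeR's quasi-likelihood test). Slc43a2, which encodes the related uniporter LAT4, rose from 16.8 ± 3.13 to 65.2 ± 17.8 CPM (log2 fold change 1.95, adjusted p = 2.9e-05).

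Taken per length over the 4 system L genes, Slc43a1 held 60.7% ± 3.77 of the sum in control muscle and 6.83% ± 1.66 in knockout muscle. Slc7a5 held 2.98% ± 0.617 and 72.8% ± 2.55, and Slc7a8 held 23.1% ± 1.92 and 4.20% ± 0.900 (exact permutation test, two-sided, p = 0.0286 and adjusted p = 0.0371 for each of the 3). The share of Slc43a2 was 13.2% ± 2.94 and 16.2% ± 2.37, a difference of 3.0 percentage points within the spread of the libraries (exact permutation p = 0.200, adjusted p = 0.217). The summed level was 17.8 ± 0.864 RPKM in control muscle and 54.9 ± 7.66 RPKM in knockout muscle, without overlap. The leading system L transcript was thus that of a uniporter in every control library and that of an exchanger in every knockout library.

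**Figure D4:**
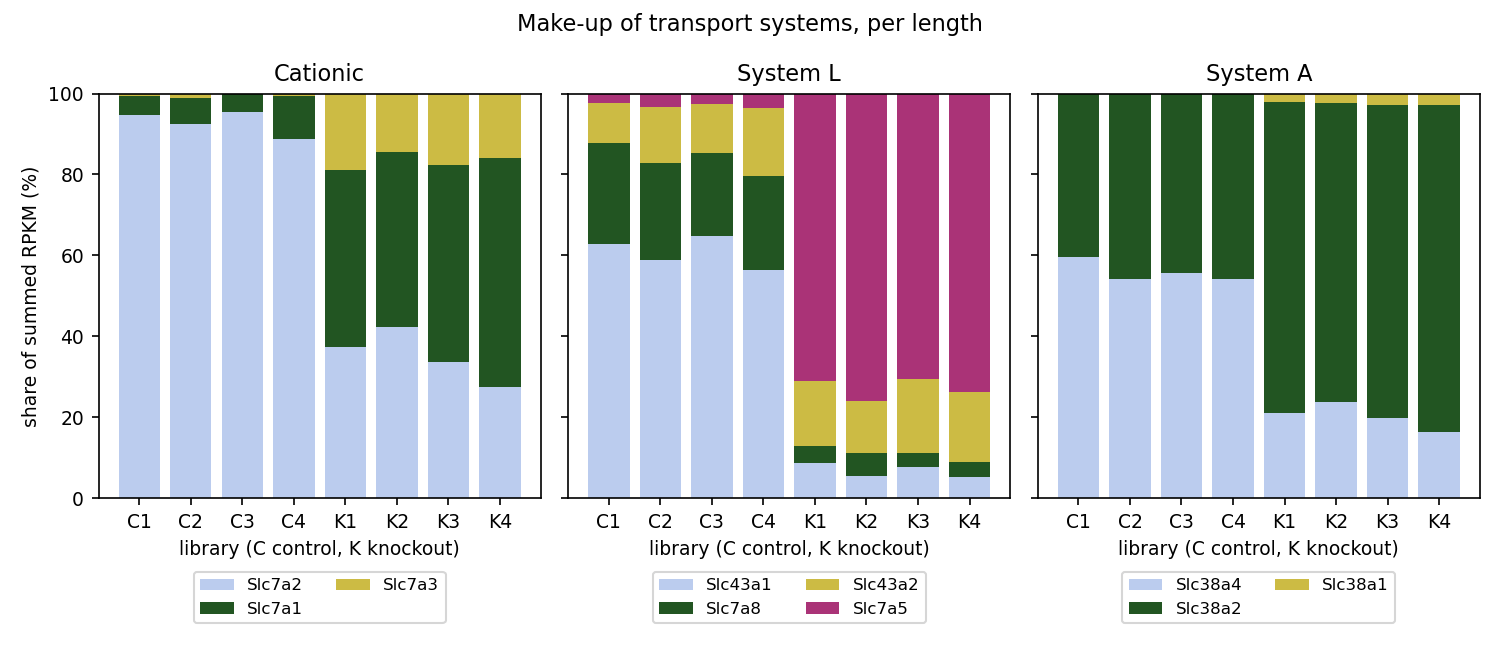
Percent of the summed RPKM held by each gene of 3 transport systems (cationic, system L and system A) in the 8 libraries, C for control and K for knockout. Slc7a2, Slc43a1 and Slc38a4 lead in the controls, at 92.8%, 60.7% and 55.9% on average, and Slc7a1, Slc7a5 and Slc38a2 in knockout muscle, at 48.2%, 72.8% and 77.2%.

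Slc38a2 (chromosome 15, 96687392 to 96699698) encodes SNAT2, the system A carrier known for its induction when amino acids are scarce. Its level was 222, 182, 221 and 201 CPM in control muscle and 160.3, 188, 158 and 177 CPM in knockout muscle, and the groups overlapped through control replicate 2 and knockout replicate 2. The log2 fold change was -0.27 (SE 0.089, adjusted p = 0.024, edgeR's quasi-likelihood test), and 0.40 (adjusted p = 0.0039) when libraries were scaled by their totals alone, so its direction depends on the scaling. Without knockout replicate 2 it was -0.33 (adjusted p = 0.0099).

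Its place among the system A genes differed between the groups. Slc38a2 held 44.0% ± 2.59 of the summed RPKM of the 3 genes in control muscle and 77.2% ± 2.88 in knockout muscle (exact permutation test, two-sided, p = 0.0286, adjusted p = 0.0371). Slc38a4, which encodes SNAT4, held 55.9% ± 2.63 and 20.4% ± 3.12, and it fell from 225 ± 42.4 to 38.6 ± 9.21 CPM (log2 fold change -2.54, adjusted p = 2.2e-06, edgeR's quasi-likelihood test). Slc38a1, which encodes SNAT1, rose from 0.906 ± 0.197 to 9.91 ± 1.17 CPM (log2 fold change 3.43, adjusted p = 3.7e-07), yet its share stayed small at 0.110% ± 0.0371 and 2.48% ± 0.315 (a difference of 2.37 percentage points, and of 4.32 from counts not divided by exon width). The system A sum was 102 ± 14.5 RPKM in control muscle and 47.9 ± 4.90 RPKM in knockout muscle, the 1 system of those summed here that was lower. Unlike a share, such a sum depends on the scaling. By library totals alone the log2 fold change was 0.40 for Slc38a2 and -1.86 for Slc38a4, so the size of this drop rests on the TMM factors.

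Slc6a9 (chromosome 4, 117835258 to 117869305) encodes GLYT1, which takes up glycine with sodium and chloride. Its level was 6.54, 6.09, 6.87 and 8.70 CPM in control muscle and 74.4, 64.5, 80.2 and 82.2 CPM in knockout muscle. The 2 groups were far apart, and control replicate 4 and knockout replicate 4 were the highest of each. The mean went from 7.05 ± 1.14 to 75.3 ± 7.96 CPM, 10.7-fold, with a log2 fold change of 3.41 (SE 0.13, adjusted p = 7.8e-08, edgeR's quasi-likelihood test).

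The genes of the 2 ASC exchangers differed in how evenly the libraries moved. Slc1a4 (chromosome 11, 20302180 to 20332713) encodes ASCT1, which exchanges serine, alanine and cysteine. It had 8, 17, 17 and 31 reads in the controls (0.646, 1.11, 1.22 and 1.95 CPM) and 178, 251, 194 and 275 reads in knockout muscle (7.42, 11.5, 8.01 and 10.9 CPM). The lowest knockout library was above the highest control, on low counts in the controls. The log2 fold change was 2.91 (SE 0.28, adjusted p = 1.3e-05, edgeR's quasi-likelihood test), and the pooled ratio was 7.43 with an exact 95% counting interval of 5.85 to 9.57.

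Slc1a5 (chromosome 7, 16781346 to 16798274) encodes ASCT2, the glutamine exchanger. Its level was 87.9, 61.3, 16.4 and 89.5 CPM in control muscle and 228, 137, 89.7 and 181 CPM in knockout muscle. Replicate 3 was the lowest library of each group, and the groups met at control replicate 4 and knockout replicate 3. The mean went from 63.8 ± 34.1 to 159 ± 59.3 CPM with a log2 fold change of 1.319 (SE 0.45, adjusted p = 0.029, edgeR's quasi-likelihood test), which did not pass. Leaving out each library in turn gave log2 fold changes from 1.0, without control replicate 3, to 1.53.

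Slc1a5 moved with the markers of adipocytes, which lie between the fibres of a dissected muscle. The summed level of the 7 markers was 1497, 996, 248.9 and 1462 CPM in control replicates 1 to 4 and 2591, 1447, 712 and 1553 CPM in knockout replicates 1 to 4, and replicate 3 was again the lowest of each group. Per 100 CPM of these markers, Slc1a5 stood at 5.87, 6.16, 6.58 and 6.12 CPM in control muscle and 8.81, 9.49, 12.6 and 11.7 CPM in knockout muscle, a measure chosen after the values were seen (exact permutation test on the log2 ratio, two-sided, p = 0.0286, and 0.114 adjusted over the 4 carriers so tested). The same test gave p = 0.371 for Slc1a3, 0.429 for Slc7a10 and 0.771 for Slc36a2 (exact permutation). On this measure control replicate 3 no longer stood apart from the other controls, and every knockout library lay above them. That result depends on the markers summed. In control replicate 3 Fabp4 made up 218 of the 248.9 CPM. Adipoq stood at 3.58 CPM there, against 59.05 to 91.7 CPM in the other controls. It thus dropped further than Slc1a5 did, and set against Adipoq alone that library would stand apart. With the mean log2 level of the markers as a covariate, also added after the values were seen, the log2 fold change of Slc1a5 was 0.65 (SE 0.11, adjusted p = 8.4e-04, edgeR's quasi-likelihood test). Among the other carriers, Slc7a10, Slc1a3, Slc36a2, Slc7a4 and Slc7a7 were also lowest in replicate 3 of each group. None of them passed the test (adjusted p = 0.35, 0.44, 0.45, 0.43 and 0.62, edgeR's quasi-likelihood test). Slc7a7 varied little between the controls, from 1.79 to 2.03 CPM, and Slc7a4 was at a low level there, 0.286 to 0.524 CPM.

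**Figure D5:**
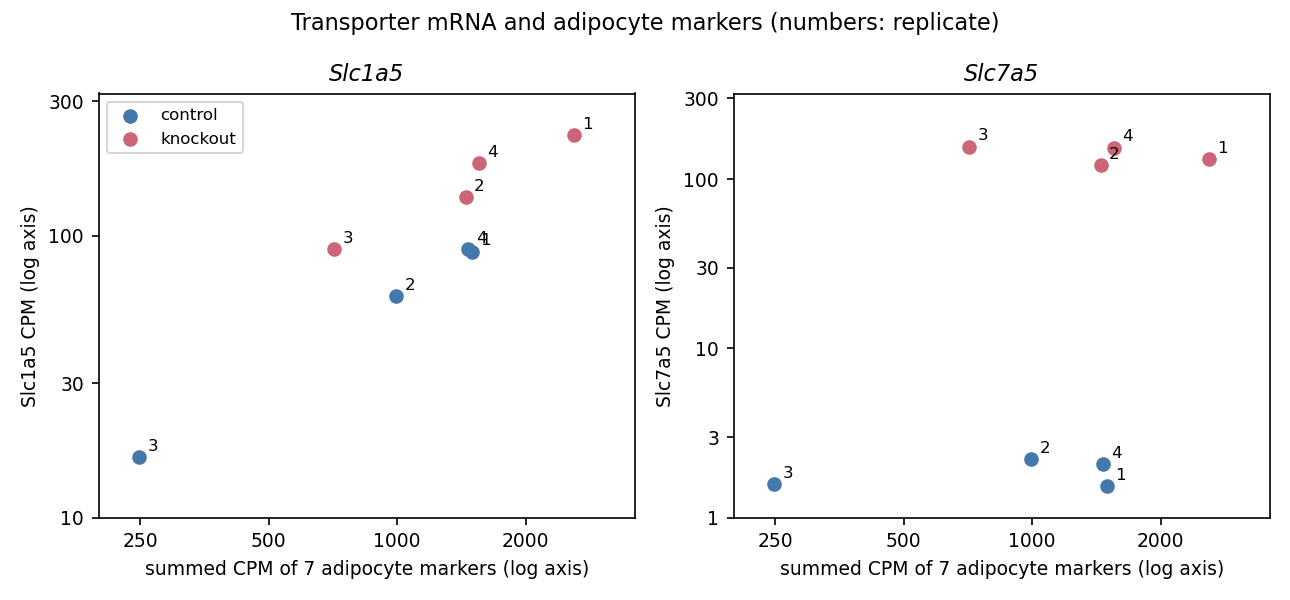
CPM of Slc1a5 (left) and Slc7a5 (right) against the summed CPM of 7 adipocyte markers, both on log axes, 1 point per library with its replicate number. Slc1a5 is lowest where the markers are lowest in each group and the knockouts lie above the controls at a like marker level, while Slc7a5 stays at 1.53 to 2.23 CPM in control muscle and 121 to 155 CPM in knockout muscle over the whole range of the markers.

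The share of Slc1a4 in the sum of both ASC genes per length was 2.06% ± 1.98 in control muscle and 4.44% ± 1.67 in knockout muscle, within the spread of the libraries (exact permutation test, two-sided, p = 0.114, adjusted p = 0.135). Control replicate 3, low in Slc1a5, had the highest control share (4.96%).

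The order of the 10 genes by level per length differed between the groups. In control muscle Slc38a2 was the highest at 44.6 ± 4.13 RPKM, followed by Slc1a5 (23.1 ± 12.4), Slc3a2 (12.3 ± 0.763), Slc43a1 (10.8 ± 1.05) and Slc7a2 (9.89 ± 2.81), and these last 4 overlapped with their neighbours in the order. Slc6a9 followed at 2.15 ± 0.349 RPKM, and Slc7a1, Slc7a5, Slc1a4 and Slc7a3 were each below 1 RPKM on average. In knockout muscle Slc3a2 (62.7 ± 2.27), Slc1a5 (57.7 ± 21.5), Slc7a5 (39.9 ± 4.80) and Slc38a2 (36.9 ± 3.07) led, each overlapping with the next. Slc6a9 (23.02 ± 2.43) came next, apart from its neighbours, and Slc7a1 (8.68 ± 1.497), Slc7a2 (6.29 ± 0.981), Slc43a1 (3.76 ± 1.10), Slc7a3 (2.99 ± 0.322) and Slc1a4 (2.41 ± 0.521) closed the order. Summed over the 10 genes, the level was 93.7 to 118 RPKM in control muscle and 226 to 262 RPKM in knockout muscle, and without Slc1a5 it was 75.4 to 87.8 and 178 to 195 RPKM.

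Of 34 other plasma membrane amino acid carriers that were listed, 17 were in the table, and 4 of these were higher, 6 lower and 7 past no threshold, and their median log2 fold change was 0.19 (58.8% called, against 44.7% of all genes, with 6 higher and 2 lower by library totals alone). The 3 with the largest rise were Slc7a11, Slc38a1 and Slc43a2, given above. The 3 with the largest fall were Slc38a4, Slc16a10, which encodes the aromatic amino acid carrier TAT1 (76.3 ± 5.83 to 22.9 ± 2.74 CPM, log2 fold change -1.74, adjusted p = 5.8e-07), and Slc6a17, known mainly from synaptic vesicles and at low level here (1.76 ± 0.876 to 0.528 ± 0.179 CPM, -1.73, adjusted p = 0.0055, by edgeR's quasi-likelihood test). Without Slc6a17 the list held 4 higher and 5 lower of 16. The members and the other carriers thus held rises and falls in different numbers, 6 and 1 of 10 against 4 and 6 of 17, and since the members were chosen with earlier results known this difference was given no test.

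Carriers of the lysosome return amino acids from broken-down protein to the cytosol. Of 8 that were in the table, 3 were higher and 1 lower (50% called, against 44.7% of all genes), and the median log2 fold change was 0.38, while library totals alone gave 7 and 0. Slc15a3, a peptide and histidine carrier, rose from 0.870 ± 0.152 to 2.10 ± 0.539 CPM (log2 fold change 1.26, adjusted p = 0.0017), Ctns, the cystine exporter, from 7.67 ± 0.272 to 11.6 ± 0.201 CPM (0.59, adjusted p = 1.8e-04), and Slc38a7, the glutamine exporter, from 10.9 ± 1.01 to 15.6 ± 1.45 CPM (0.52, adjusted p = 0.0016). Pqlc2, the exporter of cationic amino acids, fell from 6.49 ± 0.160 to 4.51 ± 0.139 CPM (-0.52, adjusted p = 0.0015, edgeR's quasi-likelihood test for each), a direction that turned with scaling by library totals alone (0.14, adjusted p = 0.29).

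Genes of the amino acid response, a list of ATF4, its partners and its targets, were higher in 12 and lower in 1 of 15 (86.7% called, against 44.7% of all genes, 23.6% higher and 21.1% lower), and their median log2 fold change was 1.74. Trib3, a pseudokinase that binds ATF4, went from 1.16 ± 0.533 to 149 ± 9.73 CPM (log2 fold change 6.98, adjusted p = 2.9e-08), Asns from 2.63 ± 0.926 to 138 ± 8.94 CPM (5.71, adjusted p = 6.9e-08) and Sesn2, a leucine sensor, from 4.11 ± 1.02 to 49.4 ± 11.5 CPM (3.60, adjusted p = 7.0e-07, edgeR's quasi-likelihood test). Atf4 itself rose from 173 ± 17.2 to 413 ± 35.7 CPM (1.26, adjusted p = 3.0e-06). The 1 that fell was Vldlr, the very low density lipoprotein receptor (-0.77, adjusted p = 5.4e-04, and -0.11 with an adjusted p of 0.48 by library totals alone). Of the 2 not called, Chac1 had a larger fall with overlapping groups, from 110 ± 62.3 to 49.8 ± 10.7 CPM (-1.15, adjusted p = 0.020, edgeR's quasi-likelihood test). The other was Ddit4 (0.26, adjusted p = 0.60). In this list Slc7a5 would stand between Trib3 and Asns by its fold change.

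Of 28 genes for sensing amino acids at the lysosome and passing the signal to mTORC1, 5 were higher and 7 lower (42.9% called, near the 44.7% of all genes). Their median log2 fold change was -0.014, while library totals alone gave 20 higher and 2 lower. The 3 with the largest rise were Sesn2, Rragc (0.89, adjusted p = 4.0e-06) and Fnip2 (0.75, adjusted p = 1.2e-04), and the 3 with the largest fall were Gatsl2 (-1.75, adjusted p = 1.1e-05), Rragd (-1.62, adjusted p = 6.3e-07) and Fnip1 (-1.11, adjusted p = 7.1e-05, edgeR's quasi-likelihood test). RRAGC and RRAGD are alternative subunits of the Rag GTPases that hold mTORC1 at the lysosome, FNIP1 and FNIP2 are alternative partners of folliculin, and the product of Gatsl2 belongs to the family of arginine sensors. Mtor, the kinase itself, stood at 70.4 ± 3.03 and 73.5 ± 5.30 CPM (0.063, adjusted p = 0.46). The paralogs Rragc and Rragd, like Fnip1 and Fnip2, thus moved in opposite directions, and kept these directions under each of the 4 other scalings.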

How the data were processed

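Polyadenylated RNA of QF muscle from 8 mice was made into directional libraries. The authors obtained the deposited raw counts by mapping trimmed reads (bcl2fastq 2.20.0.422, cutadapt) to GRCm38 with STAR 2.5.4b and counting read pairs on exons with Rsubread, after removal of duplicate, chimeric and multimapping read pairs and of low genes (the lowest gene kept has 51 reads). Whether strand was used in counting is not given in the sources used here, and the spans of the 10 members overlap no other gene of the table. The deposited FPKM values, made by the authors from these counts, served only to check them. The authors' own comparison (log2 fold changes with a Wald score, p-values, mean signal and other annotation columns as deposited, made with DESeq2 1.32.0) was not used.

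Counts of all 14012 genes were tested in R 4.3.3 with edgeR 4.0.16 (glmQLFit, glmQLFTest) with TMM factors and no term beside the group, at a Benjamini-Hochberg adjusted p under 0.01. Every adjusted p of a gene is from this fit unless another is named. The SE of a log2 fold change was derived from the test, as its absolute value divided by the square root of the F statistic. Values that exist once per library were compared with a two-sided exact permutation test (70 ways to split 8 libraries 4 to 4). The procedure was tested on simulated data in which few genes changed. That check does not cover a shift in the most abundant genes like the one seen here. RPKM used the deposited exon widths. All 10 members are named, and of each related list up to 3 genes past the threshold with the largest and the smallest log2 fold change. Mtor, Atf4, Chac1, Ddit4, Adipoq, Fabp4, Slc7a4 and the carriers that moved with adipocyte markers were named after their values were seen. The members, lists and markers were chosen with earlier results of these data known. Alternatives covered scaling, a low-count filter (filterByExpr), DESeq2 1.42.0, limma-voom (limma 3.58.1), an adjusted p under 0.05, the replicate number as a block, exon length, each library left out in turn and, added after seeing the data, the adipocyte covariate and the light chain sum without Slc7a10. Replicates of a group differed by far more than sampling noise, with 18.1 to 43.6 as the chi-square per degree of freedom.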

Additional observations from a re-analysis of the deposited data

Results flagged for a closer look

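The 4 libraries of each group were checked for 1 that stood apart, over 62 sets of values, of which chance flags about 1 in 20. The only one found was Slc7a8 in the knockouts, where replicate 2, at 10.03 CPM, lay above the other 3 (8.74 to 8.83 CPM), with a gap of 0.930 of the range of the group. All 4 were below the lowest control (14.9 CPM).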

How the results depend on the processing

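Of the 10 members, 6 to 8 were higher under every alternative. Scaling by library totals alone moved the counts most: 8498 genes were higher and 873 lower, 141 and 16 among Slc genes, 20 and 2 among lysosomal sensing genes, and 7 and 0 among lysosomal carriers, with 2 other plasma membrane carriers and 0 amino acid response genes lower. Under it Slc7a2 (0.034, adjusted p = 0.86 by edgeR) and Slc38a2 (0.40, adjusted p = 0.0039) turned. DESeq2 and an adjusted p under 0.05 called 3 members lower, adding Slc7a2 and Slc38a2, and the latter also called Slc1a5 higher. At 0.05, 2 amino acid response genes were lower. Without Slc7a10 the log2 ratio of Slc3a2 to light chains turned to -0.052.

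Leaving out each library in turn gave 2596 to 3005 genes higher and 2600 to 2937 lower, 1 to 2 members lower (2 without control replicate 4 or knockout replicate 2), 1 to 2 response genes lower (2 without control replicate 2) and 0.15 to 0.37 for the log2 ratio of Slc3a2 to light chains (0.37 without control replicate 3).

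Same-numbered libraries correlated at 0.118, 0.003, 0.42 and 0.138, and those of 3 numbers correlated best with their own. This hints at pairing by number, which the pair numbered 2 (0.003) did not show and the labels do not state, so the fit without the block was kept. With the replicate number as a block, 3215 genes were higher and 2908 lower, 2 members were lower (Slc7a2 added, -0.62, adjusted p = 0.0063), 2 response genes were lower, and Slc1a5 was higher (1.47, adjusted p = 7.5e-04). As pairs, the differences in shares (41.5, -57.6 and 16.05 points for Slc7a1, Slc7a2 and Slc7a3, 69.8, -18.9 and -53.9 for Slc7a5, Slc7a8 and Slc43a1, 33.2, 2.37 and -35.6 for Slc38a2, Slc38a1 and Slc38a4) and the log2 ratio of Slc3a2 to Slc7a5 (-3.89) had an exact p of 0.125, the smallest that 4 pairs allow. Low control counts limit the precision of Slc7a3, Slc7a11 and Slc1a4.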
